A study of Drosophila melanogaster with 6 samples.

Results

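The genes described here are 5 adenylyl cyclase genes (rut, Ac3, Ac13E, Ac76E and Ac78C) and 4 genes of protein kinase A subunits (Pka-C1, Pka-C3, Pka-R1 and Pka-R2), 9 of the 17868 genes listed for sorted clock neurons of Drosophila melanogaster. They were taken by symbol, as the enzymes that lie below the receptor of the neuropeptide PDF. None of the 9 differed beyond the correction for all genes between Prp3-RNAi and control neurons. In edgeR's quasi-likelihood test 0 of all 8708 tested genes passed that correction. No unadjusted p-value among the 9 was under 0.05 in that test, beside 9.98% of all tested genes. Ac3 and Pka-C1 gave the narrowest bounds on a difference. Pka-R1, the most abundant of the 9 per length, was 0.45 lower on the log2 scale in Prp3-RNAi neurons, a difference carried mostly by 1 of 3 pairs of libraries.

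Adenylyl cyclases make the second messenger cyclic AMP (cAMP) from ATP, and most are switched on by stimulatory G proteins that act below receptors such as the PDF receptor. Protein kinase A (PKA) is held inactive by its regulatory subunits, which bind cAMP and then free the catalytic subunits to phosphorylate other proteins. PDF keeps the groups of fly clock neurons in step, and it does so largely by raising cAMP in the neurons that carry its receptor.

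Prp3-RNAi libraries came from flies of the genotype ;ClkGAL4, UAS-GFP-NLS/UAS-Prp3-RNAi (stock BDSC#55256, a hairpin against the spliceosome gene Prp3), and control libraries from flies of the genotype ;ClkGAL4, UAS-GFP-NLS/+, which the labels call wildtype. Both groups thus carried the driver and the nuclear GFP, and the hairpin was made only where Clk-GAL4 is active; 1 hairpin stock was used, and a control hairpin is not among the groups. All flies were adults, of an age not given in the sources used here, held for 5 days in 12 h of light and 12 h of dark and collected at zeitgeber time (ZT) 14, which is in the early night. Each group had 3 libraries of polyadenylated RNA from about 2000 sorted cells each, with 28980608 to 30637247 gene counts in Prp3-RNAi libraries and 24477244 to 32551739 in control libraries, and the titles pair each control library with 1 Prp3-RNAi library.

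Prp3 itself, whose exons overlap those of Mtr3, had 27.0, 28.3 and 10.8 counts per 1000000 gene counts (CPM) in Prp3-RNAi libraries 1 to 3, against 45.6, 68.8 and 29.4 CPM in control libraries 1 to 3. The groups did not overlap, and Prp3 was lower by a log2 fold change of -1.16 (SE 0.24), for which edgeR's adjusted p-value was 0.384 and that of DESeq2 0.00883, in a range up to 0.994 over the alternatives. The general neuronal marker elav had 161 to 207 CPM in Prp3-RNAi and 164 to 195 CPM in control libraries. All 16 genes of a clock neuron marker list had enough counts to be tested. After adjustment edgeR's test called 0 of them, as it called 0 of all 8708 tested genes. Pdf, the marker of lateral clock neurons, had 302, 155 and 19960 CPM in Prp3-RNAi libraries 1 to 3 and 15940, 2566 and 17380 CPM in control libraries 1 to 3, so the libraries differed in this signal within each group. Among the other neuropeptide genes on that list, Trissin, CCHa1 and Dh31 were lower in Prp3-RNAi in every pair. AstC, ITP and NPF changed direction between pairs. Trissin had 0, 68.3 and 7.57 CPM in Prp3-RNAi libraries 1 to 3, against 2356, 718 and 1687 CPM in control libraries 1 to 3, and CCHa1 had 0, 92.2 and 58.7 CPM in Prp3-RNAi libraries 1 to 3, against 524, 601 and 404 CPM in control libraries 1 to 3. Of the 16 markers 12 were below 0, with a median log2 fold change of -0.38. Trissin, cry and Dh31 were lower at an unadjusted p-value under 0.05 in edgeR's test, beside 5.27% of all tested genes. The part of these differences in the values of the cyclase and PKA genes was not tested. In such bulk libraries, fewer cells of a type and less RNA per cell cannot be told apart, for these peptide genes as for the cyclase and PKA genes.

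Markers of other cells were read in the same way. The summed level of 10 glia markers ran from 360 to 574 CPM in Prp3-RNAi and from 303 to 778 CPM in control libraries. The defining glial gene repo had no more than 1.56 CPM, but Gs2 had 93.4 to 257 CPM in Prp3-RNAi and 61.2 to 502 CPM in control libraries. Of the 10 glia markers, all tested, 7 were above 0 and 3 below 0, with a median log2 fold change of 0.58. Among them alrm was higher in Prp3-RNAi in all 3 pairs (log2 fold change 0.73, SE 0.30). The summed level of 13 photoreceptor markers was 242 to 410 CPM in Prp3-RNAi and 278 to 376 CPM in control libraries, of which norpA, a phospholipase C gene, made up 206 to 354 CPM in Prp3-RNAi and 214 to 293 CPM in control libraries. Of 9 photoreceptor markers tested 5 were above 0 and 4 below 0. The marker ninaE had 0.133, 2.95 and 40.3 CPM in Prp3-RNAi libraries 1 to 3, against 54.0, 0 and 43.5 CPM in control libraries 1 to 3. In edgeR's test 2 of the 9 were higher at an unadjusted p-value under 0.05, both in all 3 pairs, beside 4.71% of all tested genes. These were ninaC, with 7.54, 1.999 and 3.01 CPM in Prp3-RNAi libraries 1 to 3 and 0.0313, 0.0708 and 0.217 CPM in control libraries 1 to 3, and Arr2, with 23.0, 1.90 and 23.5 CPM in Prp3-RNAi libraries 1 to 3 and 4.23, 0 and 6.76 CPM in control libraries 1 to 3. The photoreceptor gene ninaA was at 0 in every library. The 3 Kenyon cell markers together had 336 to 563 CPM in Prp3-RNAi and 286 to 370 CPM in control libraries. Control library 3 stood apart in hemocyte genes: Hml had 45.9 CPM and NimC1 29.0 CPM there, against at most 0.188 CPM for either in any other library, and Col4a1 had 26.3 CPM there, 8.15 CPM in Prp3-RNAi library 3 and at most 0.222 CPM elsewhere. The only one of these 5 hemocyte and fat body genes with enough counts to be tested, FASN1, had 80.1 to 101 CPM in Prp3-RNAi and 104 to 128 CPM in control libraries and was lower in all 3 pairs (unadjusted p-value under 0.05), and Lsp2 was at 0 throughout.

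Across the 8708 tested genes, 0 (0%) passed edgeR's test at an adjusted p-value under 0.05, and 869 (9.98%) reached 0.05 before adjustment, 410 (4.71%) of them higher and 459 (5.27%) lower in Prp3-RNAi. DESeq2 with the same block called 380 (4.36%) at an adjusted p-value under 0.05. All 9 cyclase and PKA genes were tested, with at least 169 counts in every library. Of these, 0 were called by either tool, and 0 reached 0.05 before adjustment in edgeR's test. The fitted log2 fold change was above 0 for 6 and below 0 for 3, with a median of 0.03, beside a median of 0.01 over all tested genes. In 2 of the 9, rut and Pka-C1, Prp3-RNAi was the higher library in all 3 pairs, where 35.1% of tested genes had the same direction in all pairs. In 1 of the 9, rut, the groups did not overlap, as was the case for 11.6% of tested genes.

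**Figure D1:**
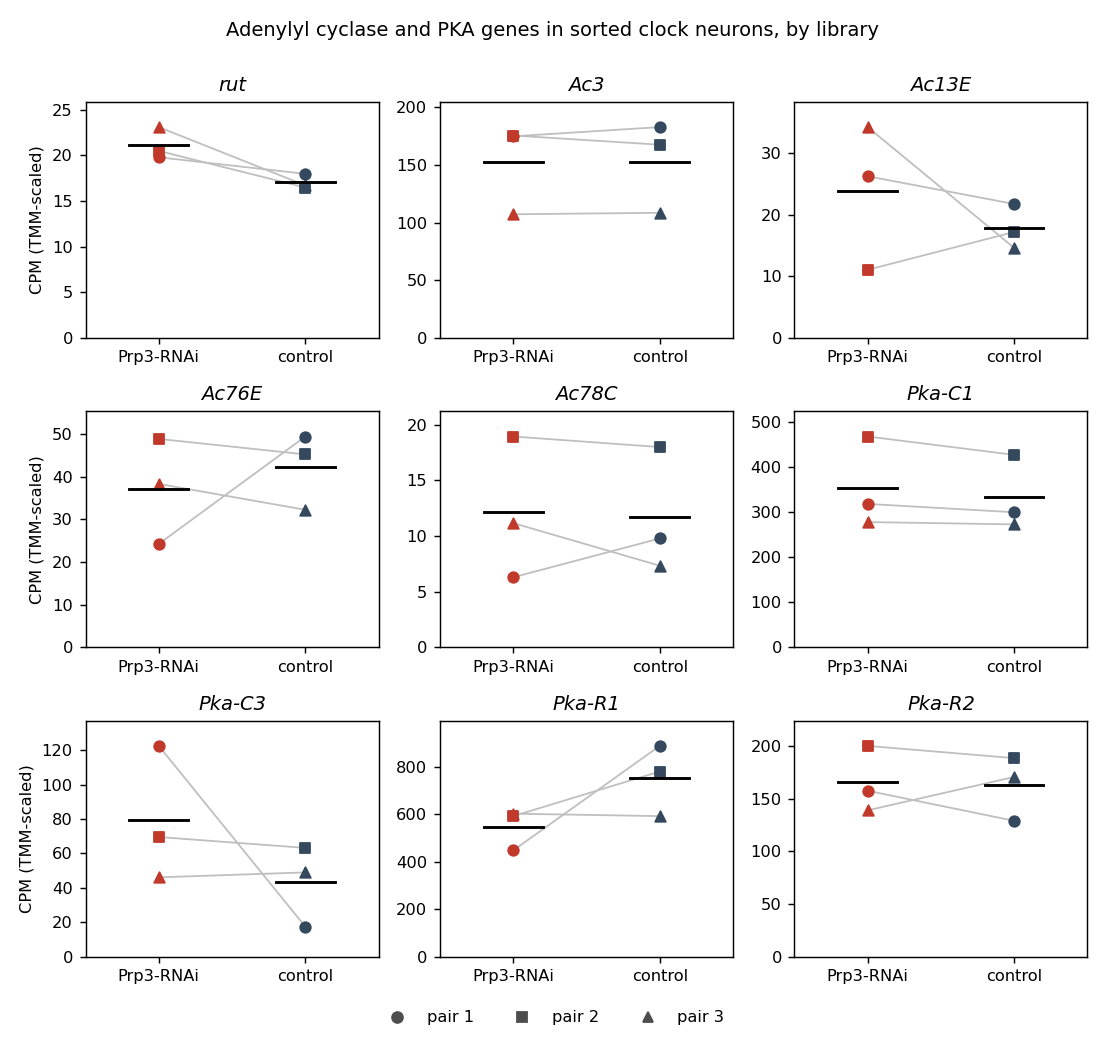
TMM-scaled CPM of each of the 9 genes (one panel each, axes from 0) in the 3 Prp3-RNAi libraries (left, red) and the 3 control libraries (right, dark), with bars at the group means and lines joining the libraries paired by title. The lines of Ac3 and Pka-C1 are nearly level while the pairs lie apart, and Pka-C3 of pair 1 shows the steepest line, at 123 CPM in Prp3-RNAi and 17.4 CPM in control.

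The levels of the 9 genes were first compared per length, as CPM per kilobase of merged exons, since longer transcripts collect more reads. Pka-R1 was highest with a mean of 126 CPM per kb over the 6 libraries (87 to 172), which lay above 91.0% of the 8255 tested genes with an exon length. Pka-C1 followed with 60.0 CPM per kb (47.6 to 81.6). These 2 genes were apart from each other and from the next in all 6 libraries, so the most abundant regulatory and the most abundant catalytic subunit gene led the order.

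Pka-R2 (33.8 CPM per kb), Ac3 (29.5 CPM per kb) and Pka-C3 (19.8 CPM per kb) formed the middle of the order, and the values of neighbours overlapped there. Ac76E had 7.47 CPM per kb and lay below Pka-C3 in 5 of 6 libraries. The last 3 were Ac13E (2.56 CPM per kb), rut (1.99 CPM per kb) and Ac78C (1.74 CPM per kb), all below Ac76E in every library and overlapping among themselves. Ac3 was thus the cyclase gene with the highest per-length level, and rut, the cyclase best known from olfactory learning, was among the lowest, above only 19.8% of tested genes. The same order held with the longest annotated transcript as the length.

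**Figure D2:**
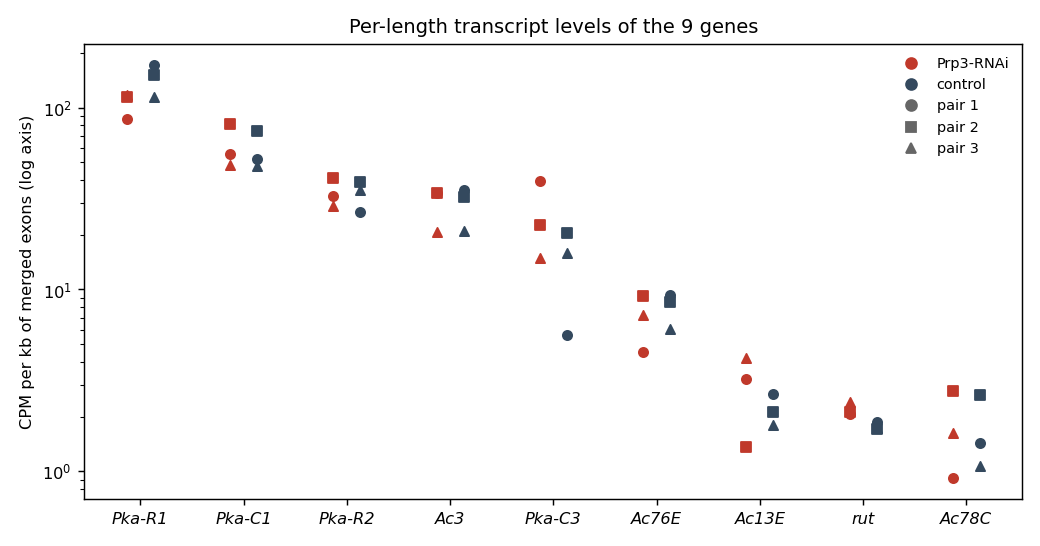
CPM per kilobase of merged exons (log axis) for the 9 genes, ordered by their mean over 6 libraries, with Prp3-RNAi libraries (red) left of control libraries (dark) and marker shapes for the pairs. Pka-R1 and Pka-C1 stand above the rest, and Ac13E, rut and Ac78C lie together at the low end between 0.92 and 4.21 CPM per kb.

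Among the cyclases, Ac3 had by far the largest share of the transcripts. This cyclase is known from fly genetics as the one through which the PDF receptor acts in the PDF-positive morning cells. Positions are given in dm6 coordinates from annotation BDGP6.54. Ac3 (FBgn0023416, chromosome 2L, 21632587 to 21647964, plus strand, 5172 bp of merged exons) had 175, 176 and 107 CPM in Prp3-RNAi libraries 1 to 3, against 183, 168 and 109 CPM in control libraries 1 to 3. Both libraries of pair 3 were low and the other 4 lay close together, so that pair 3, and neither group, was set apart. The log2 fold change was -0.00 (SE 0.11), with a 95% interval of -0.27 to 0.27 and edgeR's adjusted p at 0.991. The mean levels of the pairs spanned 0.73 on the log2 scale, whereas no pair differed within itself by more than 0.07.

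Ac78C is the cyclase that fly genetics ties to PDF signals in evening cells. Ac78C (FBgn0024150, chromosome 3L, 21136447 to 21171930, minus strand) had 6.28, 18.9 and 11.2 CPM in Prp3-RNAi libraries 1 to 3 and 9.78, 18.0 and 7.32 CPM in control libraries 1 to 3. It was highest in both libraries of pair 2, and the groups overlapped over nearly their whole range. Its fitted log2 fold change was 0.02 (SE 0.47), with a 95% interval of -1.18 to 1.21. A change of up to about that size in either direction was thus not excluded. With 169 to 597 counts a library, the counting error of the reads alone was at most 7.69%, against a coefficient of variation of 50.3% within groups.

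The calcium- and calmodulin-stimulated cyclase gene rut (FBgn0003301, chromosome X, 14787478 to 14826073, minus strand) had 19.8, 20.5 and 23.1 CPM in Prp3-RNAi libraries 1 to 3, against 18.0, 16.5 and 16.7 CPM in control libraries 1 to 3. Every Prp3-RNAi library lay above every control library, and the spread within groups, 6.72%, was the smallest of the 9 genes. The pairs differed by 0.14, 0.31 and 0.46 on the log2 scale, and the log2 fold change was 0.31 (SE 0.30, 95% interval -0.45 to 1.07), for which edgeR's adjusted p was 0.786. edgeR's standard error draws on the variance of other genes as well as on the pairs of rut. Exons of rut overlap the long noncoding RNA gene lncRNA:CR45522 on the other strand over 420 bp. Reads in that stretch, which were left out of its count, came to 7.41% to 8.36% of it in Prp3-RNAi and 6.62% to 13.5% in control libraries. With these reads put back the groups still did not overlap, and the mean of the pair differences was 0.28 in place of 0.31.

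Ac13E, the fly relative of mammalian adenylyl cyclase 9, varied between libraries in both groups. Ac13E (FBgn0022710, chromosome X, 15510877 to 15554278, minus strand) had 26.2, 11.0 and 34.2 CPM in Prp3-RNAi libraries 1 to 3, against 21.7, 17.2 and 14.6 CPM in control libraries 1 to 3. The pairs went in different directions, with 1 and 3 higher and 2 lower in Prp3-RNAi, and the log2 fold change was 0.29 (SE 0.44, edgeR's adjusted p 0.877). Its exons overlap Gmap on the other strand over 347 bp, and the reads left out there reached 15.1% of its count in control library 3 and at most 4.73% elsewhere. Without replicate 3 the sign turned, to -0.18, and without replicate 2 the value was 0.76.

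Ac76E, another membrane-bound cyclase, had the second largest share among these 5 cyclases. Ac76E (FBgn0004852, chromosome 3L, 19939287 to 19977960, plus strand) had 24.2, 48.9 and 38.3 CPM in Prp3-RNAi libraries 1 to 3, against 49.4, 45.2 and 32.2 CPM in control libraries 1 to 3. Only Prp3-RNAi library 1 lay below the range of the controls. The log2 fold change was -0.22 (SE 0.31, edgeR's adjusted p 0.867), and it was 0.19 without replicate 1.

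Of the PKA catalytic genes, Pka-C1 codes for the main catalytic subunit of the fly, which is needed for normal learning. Pka-C1 (FBgn0000273, chromosome 2L, 9682315 to 9699297, minus strand) had 318, 467 and 278 CPM in Prp3-RNAi libraries 1 to 3, against 299, 427 and 272 CPM in control libraries 1 to 3. The order of the pairs was the same in both groups, with pair 2 highest. Its fitted log2 fold change was 0.08 (SE 0.10), with a 95% interval of -0.16 to 0.32 and edgeR's adjusted p at 0.824, the tightest estimate among the 9 genes. The pair means of Pka-C1 spanned 0.70 on the log2 scale and the widest difference within a pair was 0.13, a pattern like that of Ac3 with another pair set apart.

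Pka-C3, the fly relative of the human kinase PRKX, was the least even of the 9 genes. Pka-C3 (FBgn0000489, chromosome 3L, 15925805 to 15954797, minus strand) had 123, 69.5 and 46.0 CPM in Prp3-RNAi libraries 1 to 3, against 17.4, 63.2 and 48.9 CPM in control libraries 1 to 3. Pair 1 held both the highest and the lowest value, and the other 2 pairs were nearly level. In counts, pair 1 had 3688 reads in Prp3-RNAi and 554 in control. The pairs differed by 2.81, 0.14 and -0.09 on the log2 scale, and the fitted log2 fold change of 0.89 (SE 0.63, 95% interval -0.70 to 2.49) gave, with edgeR, an adjusted p of 0.683. Without replicate 1 it was 0.04, so this value rested on that pair.

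**Figure D3:**
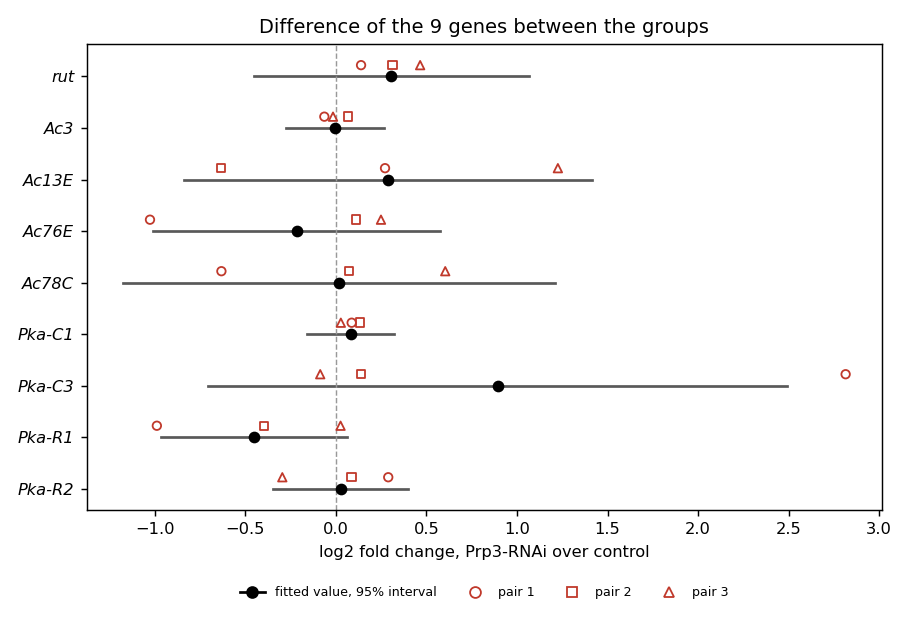
Fitted log2 fold change of Prp3-RNAi over control for the 9 genes with its 95% interval (black), and the log2 CPM difference within each pair of libraries (open red symbols). All 9 intervals reach across 0, those of Ac3 and Pka-C1 are the narrowest, and the pairs of Pka-C3 run from -0.09 to 2.81.

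The regulatory subunits keep PKA inactive until cAMP binds them. The type I regulatory gene Pka-R1 (FBgn0259243, chromosome 3L, 20816118 to 20836048, plus strand, with 18 annotated transcripts, the most of the 9 genes) had 448, 593 and 603 CPM in Prp3-RNAi libraries 1 to 3, against 889, 781 and 593 CPM in control libraries 1 to 3. Control libraries 1 and 2 lay above all Prp3-RNAi libraries, and control library 3 was level with Prp3-RNAi libraries 2 and 3. Means were 548 ± 86.8 CPM in Prp3-RNAi and 754 ± 150 CPM in control (SD, n = 3 each). In edgeR's test Pka-R1 was 0.45 lower on the log2 scale (log2 fold change -0.45, SE 0.20, 95% interval -0.97 to 0.06), with an unadjusted p-value of 0.073 that came to an adjusted p of 0.546 over all genes. The pairs differed by -0.99, -0.40 and 0.03, and the fitted value was -0.17 without replicate 1 and -0.69 without replicate 3. DESeq2 gave an adjusted p-value of 0.115, the lowest in a range up to 0.999 over 11 alternatives, so Pka-R1 was called in none of them.

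Markers of dissociation stress were ordered like Pka-R1 across the pairs. The median log2 difference over 12 of 13 heat shock and activity genes (Hsp22 was at 0 in all libraries) was -0.84 in pair 1, -0.03 in pair 2 and 0.08 in pair 3. Their summed level was 7177 to 18760 CPM in Prp3-RNAi and 8320 to 20520 CPM in control libraries. In edgeR's test 1 of the 12 was higher and 4 were lower at an unadjusted p-value under 0.05, beside 4.71% higher and 5.27% lower of all tested genes. Clock neuron markers had the same order, with medians of -0.68, -0.23 and -0.16 in pairs 1 to 3, as did the pair differences of rut, Ac76E and Ac78C. Medians of the Kenyon cell markers (-0.06, 0.13 and 0.33) and of the receptors that raise cAMP (0.07, 0.25 and 0.51) were ordered likewise. General neuronal markers had the reverse order (0.07, 0.02 and -0.04). The share of all tested genes with the order of Pka-R1 was not computed, so it cannot be called particular to stress or clock neuron markers. The part of the stress or clock neuron markers in the difference of Pka-R1 was not tested.

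Pka-R2, the type II regulatory gene, has been linked to daily locomotor rhythms through mutant flies. Pka-R2 (FBgn0022382, chromosome 2R, 9993890 to 10026042, minus strand) had 158, 200 and 139 CPM in Prp3-RNAi libraries 1 to 3, against 129, 189 and 171 CPM in control libraries 1 to 3. The groups overlapped throughout, with pair 2 highest in both. The log2 fold change was 0.03 (SE 0.15, 95% interval -0.35 to 0.40, edgeR's adjusted p 0.968), with pair differences of 0.29, 0.09 and -0.30.

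The make-up of the enzyme genes was compared as shares of the summed CPM per kb, with no test. Ac3 made up 67.3 ± 9.36% of the 5 cyclases in Prp3-RNAi and 68.2 ± 1.79% in control libraries (SD, n = 3 each). By library the Ac3 share was 75.9%, 68.7% and 57.3% in Prp3-RNAi and 69.8%, 68.4% and 66.3% in control, so it was scattered more widely among Prp3-RNAi libraries, on both sides of the controls. Ac76E held 16.2 ± 5.26% in Prp3-RNAi and 18.5 ± 0.612% in control libraries. Each of Ac13E, rut and Ac78C held at most 11.6% in any library.

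Pka-C1 made up 58.3%, 78.4% and 76.5% of the catalytic genes in Prp3-RNAi libraries 1 to 3, against 90.3%, 78.5% and 75.0% in control libraries 1 to 3. The groups were far apart in pair 1 alone, where Pka-C3 took the rest. Pka-R1 made up 72.8%, 73.6% and 80.3% of the regulatory genes in Prp3-RNAi libraries 1 to 3, against 86.6%, 79.6% and 76.6% in control libraries 1 to 3. The type I gene was the larger in all 6 libraries. The ratio of regulatory to catalytic transcripts per length was 1.25, 1.50 and 2.29 in Prp3-RNAi libraries 1 to 3 and 3.43, 2.001 and 2.36 in control libraries 1 to 3. It was lower in Prp3-RNAi in all 3 pairs, though by only 0.07 in pair 3, and Prp3-RNAi library 3 lay within the range of the controls.

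**Figure D4:**
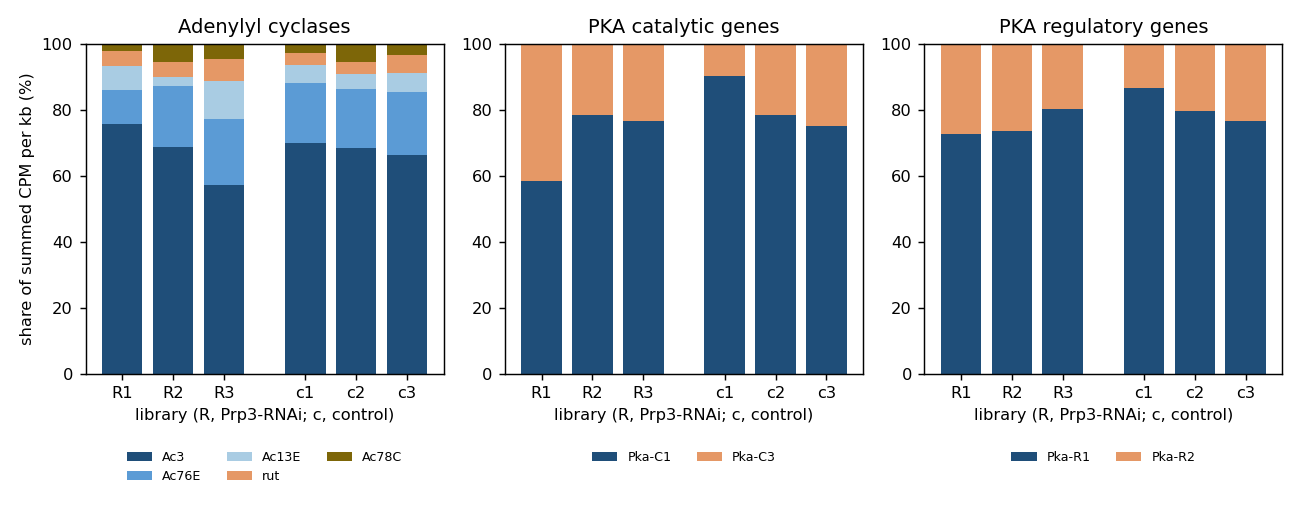
Shares of summed CPM per kilobase, in percent, within the 5 cyclase genes, the PKA catalytic genes and the PKA regulatory genes, for Prp3-RNAi libraries (R1 to R3) and control libraries (c1 to c3). Ac3 is the largest cyclase segment in every library, and the Pka-C1 segment of pair 1 is 58.3% in Prp3-RNAi and 90.3% in control.

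The genes whose profiles over the 6 libraries were most like those of the leading cyclase and the leading PKA gene were found by Pearson's r of log2 CPM. For Ac3 these were CG31211 (r = 0.998), CG30389 (r = 0.996) and row (r = 0.994), all low in both libraries of pair 3. For Pka-R1 they were CG10669 (r = 0.983), tau, the gene of a microtubule-binding protein (r = 0.979), and slou, the gene of a homeodomain protein (r = 0.979). With 6 libraries that share pairs, and 8708 genes to choose from, values this high are a description only: 36 genes had an r over 0.95 with Ac3 and 14 with Pka-R1. Among the other members, Ac76E had the highest r with Pka-R1 (0.82) and Pka-C3 the lowest (-0.82).

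Other fly genes of the same enzymes were next read for transcripts. Of the 9 in that list, only CG43373, a predicted adenylyl cyclase, was well enough expressed to be tested. It had 63.0, 64.7 and 76.0 CPM in Prp3-RNAi libraries 1 to 3, against 75.8, 68.0 and 49.0 CPM in control libraries 1 to 3, and its log2 fold change was 0.10 (SE 0.22, edgeR's adjusted p 0.918). Per length its mean of 8.74 CPM per kb was near that of Ac76E and above those of Ac13E, rut and Ac78C, but its exons overlap CG42514 on the same strand over 934 bp.

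The remaining 8 had no count in at least 1 library. ACXA and the PKA catalytic-like gene Pka-C2 had 0 counts in all 6. For 1 library taken alone, 0 counts allow an expected count of up to about 3 at 95% confidence, and 0 in all 6 together allows less. ACXC, ACXE, CG32301 and CG32305 had at most 7 counts in any library. ACXB had 54 counts in control library 3 and 0 in the others. ACXD had 67, 271 and 5 counts in Prp3-RNAi libraries 1 to 3, against 2, 0 and 1 in control libraries 1 to 3. The ACX genes are a cyclase family known from the male germline.

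Receptors that raise cAMP were compared because they stand upstream of the cyclases. Of the 11 receptor genes, all tested, 0 were called after adjustment in edgeR's test, and 2 had an unadjusted p-value under 0.05, both higher in Prp3-RNAi. Of all 8708 tested genes, 4.71% were higher and 5.27% lower at that p-value, and 0 were called after adjustment. A count of 0 called is thus no trait of this list or of those that follow. Among the receptor genes 9 were above 0, with a median log2 fold change of 0.32, beside 4430 above 0 and a median of 0.01 over all tested genes. The receptor median was 0.12 with no replicate block and with limma-voom, 0.19 without replicate 2 and 0.19 without replicate 3. The octopamine receptor gene Octbeta1R had 309, 485 and 209 CPM in Prp3-RNAi libraries 1 to 3, against 153, 269 and 107 CPM in control libraries 1 to 3. It was higher in each pair by a similar amount, 1.02, 0.85 and 0.97, although the groups overlapped. The log2 fold change was 0.94 (SE 0.10), for which edgeR's adjusted p was 0.129; DESeq2 called it, with an adjusted p-value of 1.19e-11, in a range of up to 0.999 over the alternatives.

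Octbeta2R had a log2 fold change of 0.58 (SE 0.23, edgeR's adjusted p 0.496), with 78.3, 55.9 and 54.2 CPM in Prp3-RNAi libraries 1 to 3 and 59.6, 47.0 and 25.0 CPM in control libraries 1 to 3. Its pairs differed by 0.39, 0.25 and 1.11, and it was 0.32 without replicate 3, with an unadjusted p-value no longer under 0.05. The PDF receptor gene Pdfr had 44.7, 112 and 72.8 CPM in Prp3-RNAi libraries 1 to 3, against 61.9, 116 and 93.1 CPM in control libraries 1 to 3. Pdfr was the lower in Prp3-RNAi in all 3 pairs, by as little as -0.04 in pair 2, and its log2 fold change of -0.29 (SE 0.15) gave, with edgeR, an adjusted p of 0.599; it was -0.19 without replicate 1.

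G proteins carry the signal from receptor to cyclase. Of 11 subunit genes 9 were tested, and 0 were called after adjustment, with a median log2 fold change of -0.17. At an unadjusted p-value under 0.05 in edgeR's test 0 were higher and 2 lower, beside 4.71% higher and 5.27% lower of all tested genes. Galphas, the stimulatory subunit that activates cyclases, had 321, 352 and 361 CPM in Prp3-RNAi libraries 1 to 3, against 428, 356 and 383 CPM in control libraries 1 to 3, with a fitted value of -0.17 (log2 fold change, SE 0.12, edgeR's adjusted p 0.681); it is named outside the rule for named genes, after its values were seen. Galphaq, which acts on phospholipase C, had 226, 208 and 247 CPM in Prp3-RNAi libraries 1 to 3 and 278, 306 and 303 CPM in control libraries 1 to 3. Its groups did not overlap, and its log2 fold change was -0.38 (SE 0.11, edgeR's adjusted p 0.435), with 3050 bp of its exons shared with CG45086. Gbeta5 had a log2 fold change of -0.29 (SE 0.12, edgeR's adjusted p 0.498), and -0.17 without replicate 3, with an unadjusted p-value no longer under 0.05. Galphai, Galphaf and Gbeta76C had 0 counts in at least 1 library and at most 177 in any; Gbeta76C had 100, 4 and 121 counts in Prp3-RNAi libraries 1 to 3 and 3, 0 and 0 in control libraries 1 to 3.

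Phosphodiesterases break cyclic nucleotides down, and those that act on cAMP oppose the cyclases. The genes were not sorted by the nucleotide they act on, so the counts below are no measure of cAMP breakdown. All 6 genes were tested, 0 were called after adjustment in edgeR's test, and 1 was higher and 1 lower at an unadjusted p-value under 0.05. Of all tested genes, 4.71% were higher and 5.27% lower at that p-value. Pde11 had 49.6, 43.3 and 55.3 CPM in Prp3-RNAi libraries 1 to 3, against 114, 103 and 121 CPM in control libraries 1 to 3. The groups lay far apart and the pairs differed by nearly the same amount, -1.19, -1.25 and -1.13. The log2 fold change was -1.19 (SE 0.13, 95% interval -1.53 to -0.85), for which edgeR's adjusted p was 0.151; with DESeq2 it was 8.85e-08, in a range of up to 0.766 over the alternatives.

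Pde9 was higher in all 3 pairs, with 210, 216 and 178 CPM in Prp3-RNAi libraries 1 to 3, against 144, 163 and 108 CPM in control libraries 1 to 3. The groups did not overlap, and the log2 fold change was 0.56 (SE 0.12, edgeR's adjusted p 0.384). The cAMP phosphodiesterase gene dnc, like rut a learning gene, had a log2 fold change of 0.09 (SE 0.10, 95% interval -0.16 to 0.34, edgeR's adjusted p 0.814), with 373 to 389 CPM in Prp3-RNAi and 327 to 378 CPM in control libraries; it was 0.05 without replicate 1.

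Of 13 genes for cAMP effectors, PKA anchors and targets, all tested, 0 were called after adjustment in edgeR's test, and the median log2 fold change was 0.00. At an unadjusted p-value under 0.05 in that test 1 was higher and 2 were lower, beside 4.71% higher and 5.27% lower of all tested genes. Akap200, whose protein binds PKA to membranes, had 165, 164 and 166 CPM in Prp3-RNAi libraries 1 to 3, against 319, 229 and 218 CPM in control libraries 1 to 3. The Prp3-RNAi libraries were almost equal and all below the controls; the log2 fold change was -0.61 (SE 0.15, edgeR's adjusted p 0.417; 0.00819 with DESeq2, in a range of up to 0.821 over the alternatives). CrebA, a gene of the CREB family of transcription factors, had a log2 fold change of -0.48 (SE 0.18, edgeR's adjusted p 0.483), and its groups did not overlap. Ih, the gene of the hyperpolarization-activated channel that cAMP modulates, had 664 to 699 CPM in Prp3-RNAi and 471 to 627 CPM in control libraries, a log2 fold change of 0.32 (SE 0.11, edgeR's adjusted p 0.468). Of the 9 receptor, G protein, phosphodiesterase and effector genes with an unadjusted p-value under 0.05, 4 (Octbeta1R, Pde9, Pde11 and Akap200) stayed under it whichever pair was left out. These 9 were picked by that p-value in the same libraries. The share that would stay under it among all 869 such genes was not computed, so 4 of 9 cannot be called particular to the pathway.

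**Figure D5:**
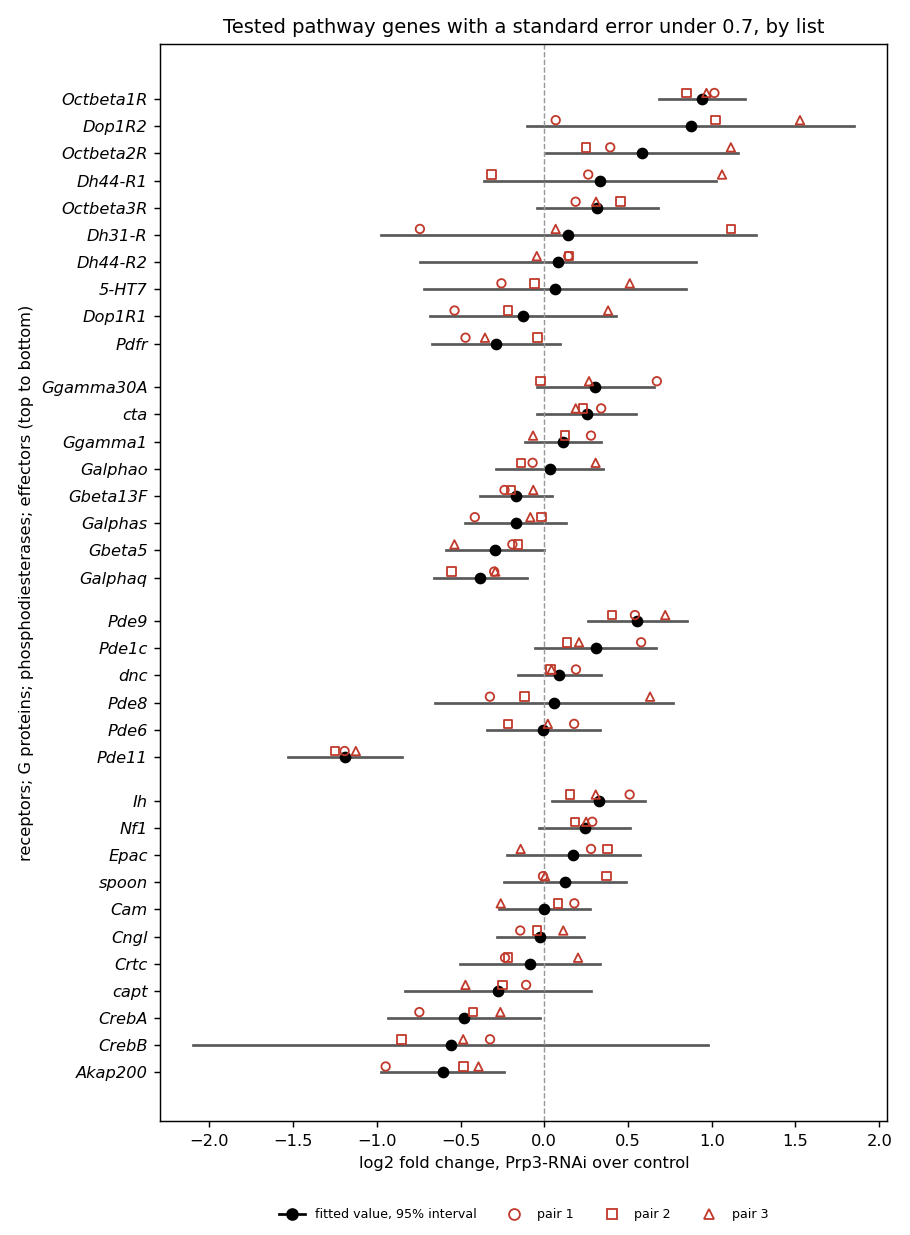
Fitted log2 fold change of Prp3-RNAi over control, with 95% intervals (black) and within-pair differences (open red), for the tested receptor, G protein, phosphodiesterase and effector genes with a standard error under 0.7, in blocks by list. Octbeta1R at 0.94 and Pde11 at -1.19 have intervals clear of 0, while dnc at 0.09 and Cam at 0.00 lie close to it.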

How the data were processed

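The deposited files held whole-number read counts per gene for 6 libraries, both strands together and for each strand; STAR 2.7.0a, Trim Galore 0.6.7 and build dm6 are named in the submitters' processing notes, and the annotation is not given in the sources used here. The strand columns held equal shares (50.0% to 50.1% forward), so the column of both strands was used. Lines that name no gene (18.5% to 24.4% of reads) were left out. Positions and exon lengths are from annotation BDGP6.54, which uses dm6 coordinates.

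Counts were tested with edgeR 4.0.16 in R 4.3.3 (glmQLFit and glmQLFTest, two-sided, TMM, filterByExpr with min.count 10 and min.total.count 15, replicate number as a block, since the titles pair the libraries), with Benjamini-Hochberg adjustment over 8708 tested genes; DESeq2 1.42.0 and limma 3.58.1 were alternatives. The script was tested on simulated data. Log2 CPM used a prior count of 2. Deviations from group means correlated across genes at 0.0458, 0.266 and 0.236 within pairs and at -0.252 to 0.0203 otherwise. Nothing says that libraries came from separate flies, so p-values measure the spread between libraries. The members, lists and tests were chosen with earlier results of these data known; yu was read under its current symbol spoon. Named from the pathway lists by rule were genes with an unadjusted p-value under 0.05 or 0 counts in some library, Pdfr and dnc; CG43373, Galphas, Cam and the cell type markers printed were named outside it, after their values were seen.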

Additional observations from a re-analysis of the deposited data

How the results depend on the processing

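The count of genes called after adjustment, 0 in edgeR's test with the replicate block and filterByExpr (869 before adjustment), was 8 with no replicate block, 380 with DESeq2, 4 with limma-voom, 11 with the filter of at least 1 count and 0 to 4 when one pair was left out. The count at an unadjusted p-value under 0.05 was 421 with no replicate block and 529 to 756 when one pair was left out. Of the 9 cyclase and PKA genes, 1 reached that level with DESeq2, with limma-voom, with the filter of at least 1 count and without replicate 3 (0 to 1 over the pairs left out), in each case Pka-R1. No cyclase or PKA gene was called after adjustment in any of the 11 alternatives. With no replicate block none of the 9 changed sign or was called. Signs turned for Ac3 with library totals alone (0.063) and when a pair was left out (-0.034 to 0.037), for Ac13E (-0.18 to 0.76), for Ac76E (-0.46 to 0.19), for Ac78C (-0.28 to 0.35) and for Pka-R2 (-0.093 to 0.19) when a pair was left out; the cause was not tested. The median of the G protein genes was -0.10 with library totals alone and -0.10 to 0.12 when a pair was left out, and that of the effectors and anchors was 0.068 with library totals alone and -0.011 to 0.13 when a pair was left out. The receptor median was 0.12 to 0.39 over all 11 alternatives. DESeq2 called Octbeta1R, Pde9, Pde11, Akap200 and Prp3, which no other alternative did. The counting error of the reads alone was at most 7.69% for any of the 9 genes, and for each of them it was below the spread within groups. It takes every read as a separate draw, so error from the number of RNA molecules sampled is not part of it.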
